A study of Zea mays with 15 samples.

Results

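The binding of ARF27 (GRMZM2G160005) was compared with that of ARF35 (GRMZM2G317900), both AUXIN RESPONSE FACTORS of maize. The members were all peaks on the deposited list of either protein, 30665 for ARF27 and 9198 for ARF35, or 39863 of the 386300 peaks on the 14 lists of the series. A peak was called shared when its summit lay at most 100 bp from a summit on the partner list, and was otherwise ARF27-only or ARF35-only. All peaks had the same width, for which this distance is an overlap of at least 50% of each peak.

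ARFs are plant transcription factors that carry the signal of the hormone auxin to its target genes, and their DNA-binding domain recognises a short element with the core TGTC. The study placed ARF27 and ARF35 in clade A, together with ARF4, ARF16, ARF18, ARF29 and ARF34. The remaining proteins (ARF39, ARF36, ARF25, ARF14, ARF13, ARF10 and ARF7) belong to clade B. In reporter assays, members of clade A tend to raise transcription and members of clade B to lower it.

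Binding was measured by DAP-seq, in which a purified protein captures fragments of naked genomic DNA in the test tube. The DNA of every library came from 1-3 cm ears of the inbred line B73, and each ARF was a glutathione S-transferase (GST) fusion made in E. coli. A GST-HALO protein made in wheat germ extract served as the negative control for all lists. The assay therefore had neither chromatin nor partner proteins from the plant. Each ARF had 1 library, so no test between ARFs was possible, and differences below are differences between lists. The ARF27 library had been reduced to 20 M mapped reads and that of ARF34, the longest list of the series, to 15 M. For ARF35 the study gives only a range common to all libraries, so its own depth is not known here. The part of depth in the unequal list lengths was not tested. Brackets after a share give its 95% Wilson interval, which covers counting error over peaks only. The reads carry no molecular identifiers, so PCR copies could not be told apart, and peaks close to each other are not independent events.

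The ARF35 list lay almost wholly within the ARF27 list. Nearly as much of it lay within the longer ARF34 and ARF16 lists (88.9% and 87.0% of its peaks). An ARF27 summit lay within 100 bp of 8435 of the 9198 ARF35 peaks (91.7%, 91.1 to 92.3), and 763 ARF35 peaks had none. In the other direction 9128 of the 30665 ARF27 peaks were shared (29.8%, 29.3 to 30.3) and 21537 were not. When overlapping peaks of both lists were merged, 29388 sites resulted, of which 8146 (27.7%) held both proteins, 20540 held ARF27 and 702 held ARF35. The counts of shared peaks differ between the lists because some peaks had several partner summits in reach. This held for 1018 ARF35 peaks with 2 ARF27 summits and 20 with 3, and in the other direction for 363 ARF27 peaks with 2 or more ARF35 summits.

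Lists of equal length were compared next, which brings both shares close together by construction. When the ARF27 list was cut to its 9198 strongest peaks, the length of the ARF35 list, 63.7% (62.7 to 64.7) of its peaks were shared and 62.9% (61.9 to 63.8) of the ARF35 peaks were. At this length ARF35 was the closest partner of ARF27, ahead of ARF16 at 59.7% (58.7 to 60.7), ARF34 at 55.2% and ARF29 at 54.8%. ARF27 was likewise the closest partner of ARF35, ahead of ARF29 at 56.0% (55.0 to 57.0) and ARF16 at 51.9%. The 7 clade B lists held between 11.2% and 19.8% of the ARF27 peaks, and between 9.0% and 17.4% of the ARF35 peaks, at the same length. ARF18 had only 7520 peaks and entered with all of them (48.1% of ARF27 peaks and 49.7% of ARF35 peaks).

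Signal is the read depth that the peak caller assigned to a peak. It was not scaled between libraries, so peaks were ranked from 0 (weakest) to 100 (strongest) within their own list. Shared peaks were the strong part of the ARF27 list, with a median rank of 80.1 (quartiles 58.3 and 91.7) and a median signal of 92.0 reads. ARF27-only peaks had a median rank of 39.1 (quartiles 19.2 and 60.7) and a median signal of 44.6 reads. Within the ARF35 list the median rank was 52.9 for shared and 18.7 for ARF35-only peaks, whose median signals were 63.0 and 43.0 reads. In both lists, unshared peaks thus had a lower median rank than shared ones. The ARF27 classes overlapped, since the upper quartile of ARF27-only peaks (60.7) was above the lower quartile of shared peaks (58.3).

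The share of ARF27 peaks with an ARF35 partner rose from 8.95% (8.0 to 9.99) in the weakest decile (10% of the list by signal) to 28.5% in the seventh decile and 87.9% (86.7 to 89.0) in the strongest. Among ARF35 peaks it rose from 74.6% (71.7 to 77.4) in the weakest decile to 98.8% in the ninth and 97.9% in the strongest. All of the 100 strongest ARF27 peaks and 99 of the 100 strongest ARF35 peaks were shared. The same was seen with the confidence of the call. At a −log10 q of at least 50, 1337 of 1390 ARF27 peaks (96.2%) and 291 of 291 ARF35 peaks were shared. At a −log10 q of at least 20, the shares were 77.0% of 6086 ARF27 peaks and 99.7% of 1481 ARF35 peaks.

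**Figure D1:**
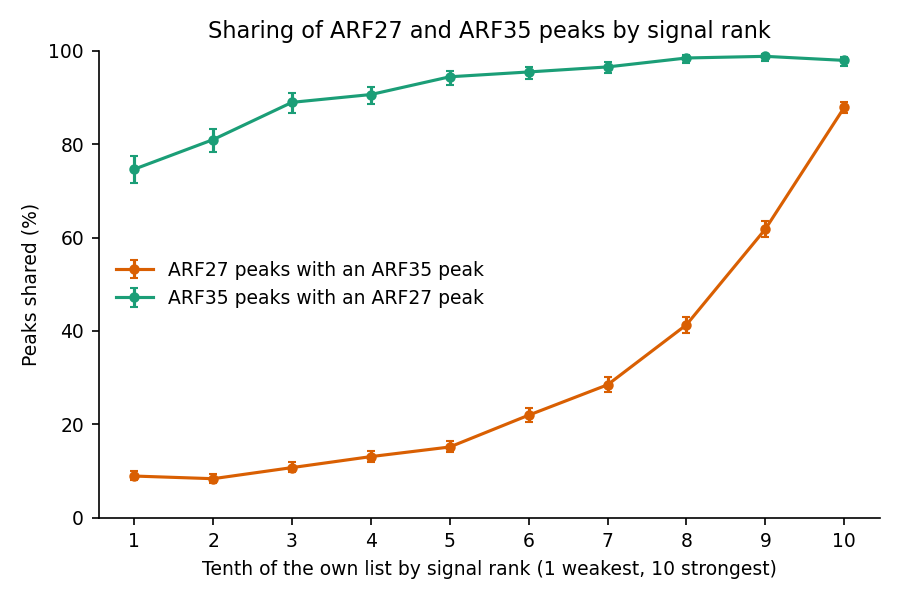
Share of peaks (%) with a partner summit within 100 bp, by decile of the own list's signal rank, with 95% Wilson intervals as bars. The ARF27 curve climbs from 8.95% to 87.9%, most of it in the upper 4 deciles, while the ARF35 curve starts at 74.6% and stays at 94.4% or more from the fifth decile on.

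For each of the 8435 shared ARF35 peaks the nearest ARF27 peak was taken as its pair. The pairs held 8326 distinct ARF27 peaks, so some ARF27 peaks were in more than 1 pair. The ranks of the paired peaks rose together across the genome (Spearman's rho 0.654 across pairs, which are not independent replicates and share the source of the DNA and the control). The pairs took in nearly all of the ARF35 list but mostly the upper part of the longer ARF27 list. The ARF27 rank was the higher of the 2 in 7151 pairs (84.8%), with a median difference of 18.2 rank points. Ranks are relative to each list, so this shift says nothing of which protein bound more strongly. The part of list length in the shift was not tested. In the other direction, the ARF35 rank was the higher by over 50 points in 35 pairs (0.415%). Of the 844 pairs in the top decile by ARF27 signal, 494 (58.5%) were also in the top decile by ARF35 signal.

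The pairs with the highest mean rank lay at sites with peaks on many lists. The leading one lay on chromosome 6 (ARF35 peak at 167839291 to 167839491, B73 RefGen version 3), with a signal of 1282.9 reads for ARF27 and 775 reads for ARF35, and 7 of the other 12 lists had a peak there. The next were on chromosome 8 (118571132 to 118571332, 1087.4 and 755 reads, 12 other lists), chromosome 6 (133279105 to 133279305, 762.6 and 783.4 reads, 12 other lists), chromosome 5 (116422213 to 116422413, 1072 and 725 reads, 12 other lists) and chromosome 6 (135400323 to 135400523, 1015.7 and 706.6 reads, 8 other lists). Each of the 5 sites thus had a peak on 7 or more of the other 12 lists.

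Other pairs were far apart in rank. A pair on chromosome 3 (147436601 to 147436801) had 196.7 reads and rank 95.3 for ARF27 but 32.8 reads and rank 3.18 for ARF35. The summits of this pair were 31 bp apart. Gaps of the same direction and of 92.0 points were found on chromosome 4 (73033700 to 73033900) and chromosome 2 (753250 to 753450), with summits 54 and 2 bp apart. The opposite order was most marked on chromosome 3 (220762349 to 220762549), where ARF27 had 26.2 reads (rank 2.81) and ARF35 had 163 reads (rank 93.1). It was followed by pairs on chromosome 2 (132385503 to 132385703, 25.8 and 128 reads) and chromosome 9 (133349711 to 133349911, 27.9 and 113 reads). In these 3 pairs the summits were 2, 8 and 2 bp apart. The 3 pairs in favour of ARF35 were all on 5 to 7 other lists, so these were not sites particular to ARF35.

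**Figure D2:**
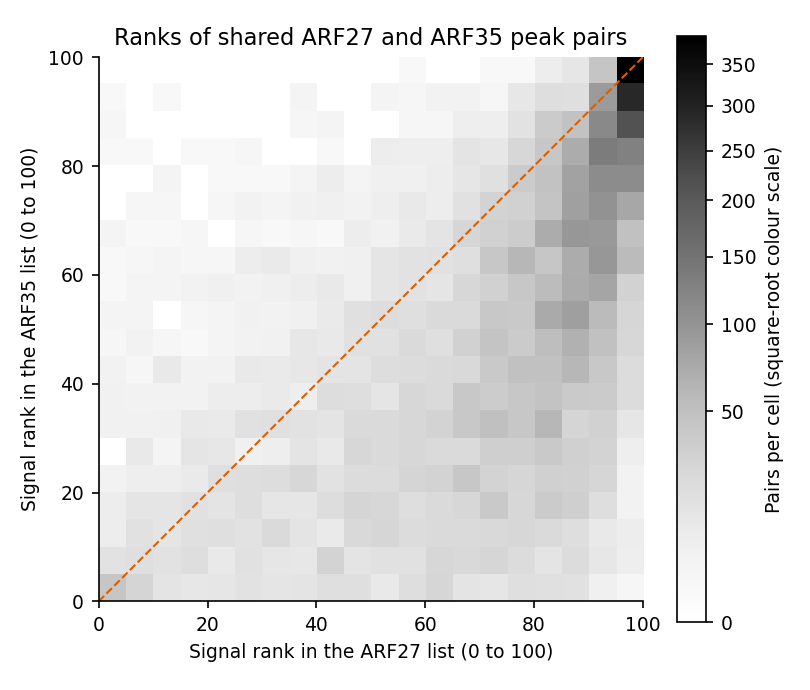
Signal rank in the ARF27 list (x axis, 0 to 100) against that in the ARF35 list (y axis, 0 to 100) for the 8435 pairs, as the number of pairs per cell of 5 by 5 rank points on a square-root colour scale. The dashed line marks equal ranks. Most pairs (84.8%) lie below it, with the ARF27 rank higher, and the densest cell is the corner where both ranks are highest.

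The summits of paired peaks were placed with a fixed offset. In 5781 of the 8435 pairs (68.5%, 67.5 to 69.5) the summits were exactly 2 bp apart, with the ARF27 summit on the higher coordinate in 2836 and on the lower in 2945. No other distance came close, since the next most frequent, 15 bp, held 96 pairs (1.14%), and identical summits occurred in 28. The share of pairs at 2 bp rose with the ARF35 signal, from 61.2% (58.6 to 63.6) in the weakest quintile (20% of the list) to 72.7% (70.6 to 74.7) in the strongest.

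Each of the 2 lists kept an offset of its own against some of the other lists. ARF27 summits were most often 1 bp from those of ARF4, ARF16 and ARF18, 2 bp from those of ARF34 and ARF7, and 3 bp from those of ARF29. ARF35 summits were most often 3 bp from those of ARF4, ARF16 and ARF18, 4 bp from those of ARF34, 1 bp from those of ARF29 and 0 bp from those of ARF7. These modal distances held 38.6% (ARF7) to 56.6% (ARF29) of the ARF27 peaks shared with the list named, and 41.6% (ARF7) to 63.9% (ARF29) of the ARF35 peaks. ARF27 and ARF35 summits thus differed by 2 bp in their modal distance to each of these 6 lists. Against the other 6 lists no distance held more than 8.05% of the shared peaks. The peak caller was run per library and placed summits with the help of enriched short sequences. The part of this step in the offsets was not tested, so they are properties of the lists and not shown to be those of the proteins.

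Few peaks lay close to the limit of 100 bp. Just inside it, at 91 to 100 bp, were 30 pairs with median ranks of 19.1 for ARF35 and 63.6 for ARF27. Just outside, at 101 to 110 bp from the nearest ARF27 summit, were 19 ARF35-only peaks with a median rank of 27.9. A much tighter limit of 20 bp did change the classes, with 2129 ARF35-only and 23571 ARF27-only peaks. At 100 bp, 367 of the 763 ARF35-only peaks (48.1%) lay more than 10 kb (10000 bp) from any ARF27 summit, and the median distance was 8667 bp. ARF27-only peaks lay farther from the sparser ARF35 list, 77.0% of them by more than 10 kb with a median of 60745 bp. Shared ARF27 peaks also had close neighbours on their own list more often, since 24.9% (24.0 to 25.8) had another ARF27 summit within 200 bp against 7.30% (6.96 to 7.66) of ARF27-only peaks. For ARF35 these shares were 7.77% (7.21 to 8.36) of shared and 1.83% (1.10 to 3.06) of ARF35-only peaks. The sharing rule builds in part of both contrasts, since 2 summits within 100 bp of 1 partner summit are both shared and at most 200 bp apart. This applied at 1018 ARF35 peaks with 2 ARF27 summits in reach and 20 with 3, and at 363 ARF27 peaks with 2 or more ARF35 summits. How much of either contrast remains without such peaks was not computed.

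Both lists were densest toward the chromosome ends, and shared peaks more so than unshared ones. The outer region was defined as 10% of the span at either end of a chromosome, and 25.1% of the summits of all 14 lists lay in it. This share was 30.4% (29.9 to 30.9) on the whole ARF27 list and 32.9% (32.0 to 33.9) on the whole ARF35 list. On the other clade A lists it ran from 25.1% (ARF34) to 29.5% (ARF18), and on the clade B lists from 20.9% (ARF7) to 24.0% (ARF25). The outer share was 33.7% (32.8 to 34.7) for shared ARF27 peaks, 29.0% (28.4 to 29.6) for ARF27-only peaks and 27.1% (24.1 to 30.4) for ARF35-only peaks. The difference between shared and ARF27-only peaks was 4.76 percentage points (95% Newcombe interval 3.62 to 5.91), and shared peaks had the higher share on 10 of 10 chromosomes. Between shared and ARF35-only peaks of the ARF35 list it was 6.31 points (2.90 to 9.51), and with the ARF27 list cut to the length of the ARF35 list 1.94 points (-0.05 to 3.90). Within quintiles of the ARF35 rank (each 20% of the list) it was 1.88, 2.77, 7.33 and 10.1 points from the weakest to the fourth, with intervals that all included 0.

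Among ARF27 peaks of like rank, the difference was seen in most of the list but not among the strongest peaks. ARF27-only peaks in the weakest quintile of the ARF27 list lay in the outer region in 26.5% of cases (25.3 to 27.6), and this share was 34.1% (31.8 to 36.5) in the strongest quintile. Shared peaks stayed between 32.0% and 34.1% in every quintile. In the strongest quintile, shared and ARF27-only peaks differed by -0.12 points (-2.88 to 2.59), while in the weakest quintile shared peaks were higher by 6.18 points (2.16 to 10.4). In the 3 quintiles between, the differences were 3.32 (-0.24 to 7.04), 5.31 (2.36 to 8.35) and 2.70 points (0.25 to 5.17) from weaker to stronger, and whether the quintiles differ from each other was not tested. With the ARF27 list cut to the length of the ARF35 list, the interval of the overall difference reached 0 (1.01 points, -1.0 to 3.00).

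The strongest ARF35-only peaks were seldom in the outer region. For ARF35-only peaks the outer share was 27.3% (23.2 to 31.8) in the weakest quintile of the ARF35 list, whereas 2 of the 30 in the strongest quintile lay in the outer region (6.67%, 1.85 to 21.3) against 33.8% (31.7 to 36.0) of shared ARF35 peaks of that quintile. Many of these 30 peaks came from a few places that are described further on. Outside those places the count was 2 of 12 (16.7%, 4.70 to 44.8), whose interval includes the value of shared peaks.

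**Figure D3:**
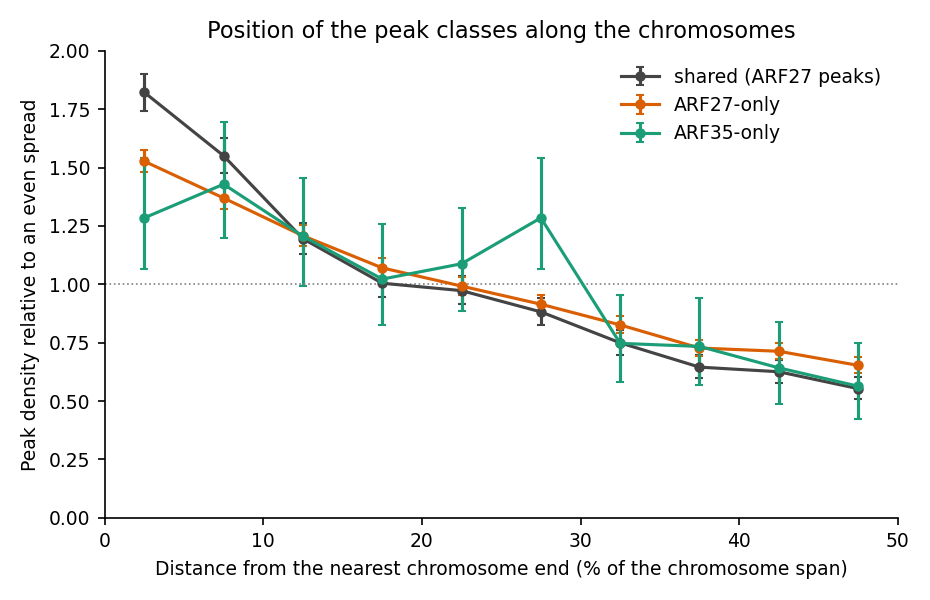
Peak density relative to an even spread along the chromosome (y axis, 1 means even) against distance from the nearest chromosome end (x axis, % of the chromosome span), in bins of 5%, with 95% Wilson intervals as bars. Shared peaks fall from 1.82 at the ends to 0.553 at the centre and ARF27-only peaks from 1.53 to 0.653. ARF35-only peaks have wide intervals and a second rise to 1.28 in the bin from 25 to 30%, which holds 2 of the runs of strong ARF35-only peaks described in the text.

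The 3 classes also differed in how many of the other 12 lists had a peak within 100 bp. The median was 5 lists for shared peaks, 3 for ARF27-only peaks and 1 for ARF35-only peaks. Of all ARF27 peaks, 8.30% were on none of the 12 lists, and this held for 118 shared ARF27 peaks (1.29%, 1.08 to 1.55) and 2426 ARF27-only peaks (11.3%, 10.8 to 11.7). The last share was 20.4% without the ARF34 list, 24.2% at a limit of 20 bp, 2.10% with the ARF27 list cut to the length of the ARF35 list and 64.4% with each of the 12 lists cut to 7520 peaks. Of all ARF35 peaks, 4.98% were on none, and this held for 339 of the 763 ARF35-only peaks (44.4%, 40.9 to 48.0). With the same cuts it was 13% of 3416 ARF35-only peaks and 77.3%, so both shares depended on list length. At the other end, 624 shared ARF27 peaks (6.84%) and 113 ARF27-only peaks were on all 12 lists. No ARF35-only peak was, which allows a share of up to 0.501% by the upper Wilson limit.

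**Figure D4:**
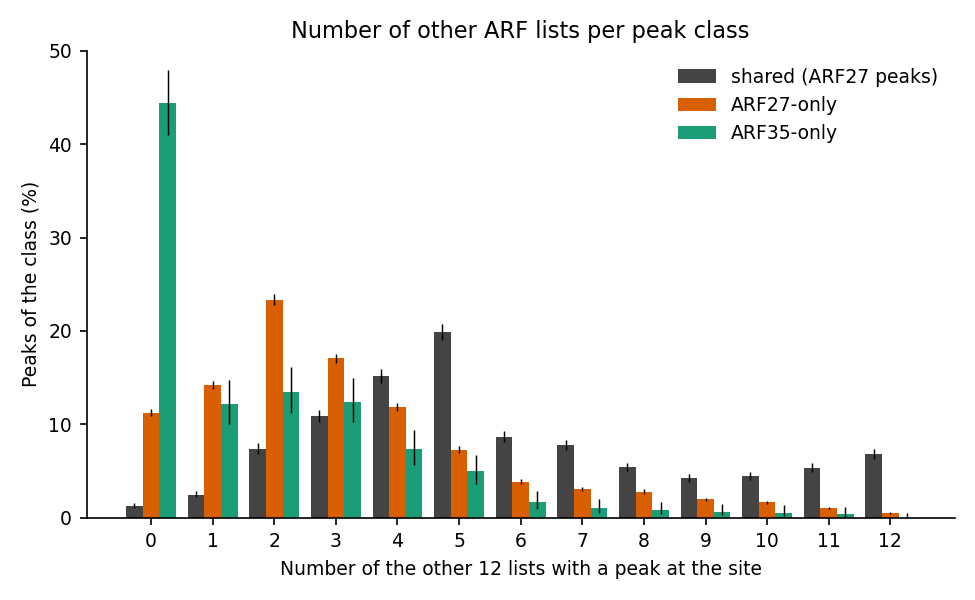
Share of each class (%, y axis) by the number of the other 12 lists with a peak within 100 bp (x axis), with 95% Wilson intervals as thin bars. Shared peaks are most frequent at 5 lists (19.9%) and ARF27-only peaks at 2 lists (23.4%), while 44.4% of ARF35-only peaks are on no other list.

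List by list, shared peaks were above both unshared classes throughout. ARF34 had a peak at 93.8% of shared, 76.8% of ARF27-only and 38.7% of ARF35-only peaks. ARF16 had one at 92.1%, 62.3% and 36.8%, and ARF4 at 78.0%, 40.6% and 25%, in the same order. ARF29 and ARF18 set the classes apart in another way. ARF29 was present at 71.6% (70.7 to 72.5) of shared peaks and, with overlapping intervals, at 21.1% (20.6 to 21.7) of ARF27-only and 22.9% (20.1 to 26.1) of ARF35-only peaks. ARF18 was present at 53.8% of shared, 10.2% (9.77 to 10.6) of ARF27-only and 13% (10.8 to 15.5) of ARF35-only peaks. Among the clade B lists ARF10 was the most frequent at shared peaks, with 43.0% of shared, 22.9% of ARF27-only and 7.99% of ARF35-only peaks.

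**Figure D5:**
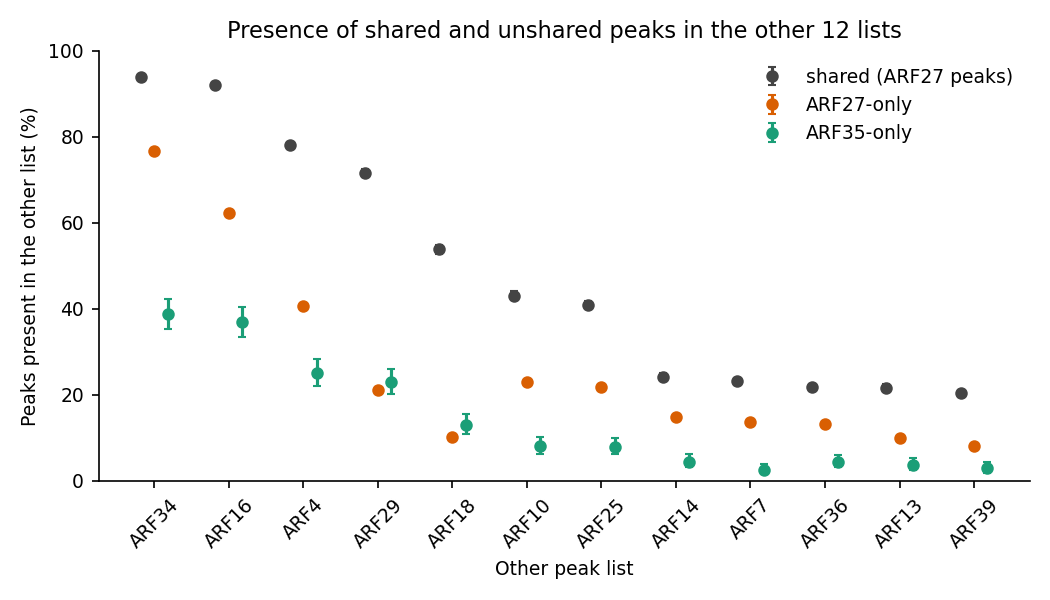
Share of peaks (%, y axis) with a peak of each other list within 100 bp (x axis, ordered by the share at shared peaks), with 95% Wilson intervals as bars. Shared peaks lie highest for all 12 lists. ARF35-only peaks lie lowest for 10 of them, the exceptions being ARF29 and ARF18, where they lie at 22.9% and 13% against 21.1% and 10.2% of ARF27-only peaks.

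The exact sets of lists showed the same order. The most frequent set at shared ARF27 peaks was ARF4, ARF16, ARF18, ARF29 and ARF34 together with no other list, at 1387 peaks (15.2%, 14.5 to 15.9), which are all 5 other clade A lists. At ARF27-only peaks this set was found at 533 (2.47%), and the most frequent set was ARF16 with ARF34, at 3636 (16.9%, 16.4 to 17.4). At ARF35-only peaks no other list was the most frequent state, followed by ARF16 with ARF34 at 53 peaks (6.95%).

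The order of shared and ARF27-only peaks was the same within each quintile of the ARF27 list. In the strongest quintile, ARF27-only peaks were on a median of 4 other lists and shared peaks on 6. The share of these strong ARF27 peaks with an ARF35 partner was 7 of 30 (23.3%, 11.8 to 40.9) where no other list had a peak, 82.3% (80.0 to 84.3) with 5 other lists and 94.5% (92.2 to 96.1) with all 12. The rise was not steady, since the share stayed between 78.9% and 82.3% from 5 to 10 other lists. Strong ARF27-only peaks, 1542 in number, were nearly always on the ARF34 list (94.2%, 92.9 to 95.2, against 98.6% of shared peaks) and the ARF16 list (88.4% against 98.4%). On the ARF29 list they were found in 35.3% (32.9 to 37.7) against 81.6% (80.4 to 82.7), and on the ARF18 list in 23.6% (21.6 to 25.8) against 69.2% (67.9 to 70.5). ARF18, ARF29 and ARF35 have short lists, and the part of list length in this pattern was not tested.

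The strongest ARF27-only peaks were sites of many lists. The first, on chromosome 1 (294704206 to 294704406), had 485.8 reads and a −log10 q of 124, with peaks of ARF4, ARF7, ARF10, ARF16, ARF18 and ARF34. Those that followed were on chromosome 9 (123178580 to 123178780, 443 reads, 4 other lists), chromosome 7 (40010159 to 40010359, 437 reads, 5 other lists), chromosome 5 (67532429 to 67532629, 408 reads, 10 other lists) and chromosome 3 (176401351 to 176401551, 395 reads, 9 other lists). In the strongest quintile, 23 ARF27-only peaks were on no other list (1.49%, 0.996 to 2.23). Among the 4589 shared ARF27 peaks of that quintile there were 7 (0.153%, 0.0739 to 0.315). The leading ARF27-only peaks on no other list were on chromosome 6 (27898072 to 27898272, 148 reads, rank 91.5), chromosome 9 (91977922 to 91978122, 131 reads) and chromosome 5 (27795611 to 27795811, 128.6 reads).

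Many strong ARF35-only peaks were on no other list. Among the 77 in the upper 2 quintiles of the ARF35 list, there were 49 such peaks (63.6%, 52.5 to 73.5), and among the 30 in the strongest quintile there were 23 (76.7%, 59.1 to 88.2). For shared ARF35 peaks the counts were 12 of 3620 (0.331%, 0.190 to 0.579) and 7 of 1810 (0.387%, 0.187 to 0.796). The strongest ARF35-only peak lay on chromosome 6 (104401991 to 104402191), with 516 reads (rank 99.7), a −log10 q of 35.9 and no peak on any other list. The next were on chromosome 4 (172431702 to 172431902, 251 reads, no other list), chromosome 5 (157964603 to 157964803, 219 reads, no other list), chromosome 7 (150232502 to 150232702, 203.3 reads, ARF29) and chromosome 4 (172446425 to 172446625, 200.5 reads, ARF13). Their calls were less certain for their depth. The −log10 q per read of signal had a median of 0.0733 for the 30 peaks and 0.201 for the 1810 shared ARF35 peaks of the same quintile.

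Some of these peaks lay close together. Of the 77 strong ARF35-only peaks, 28 lay in 4 short runs of at least 3 such peaks with no gap over 50 kb. This rule was chosen after the peaks had been seen, and runs of shared peaks were not sought. At the distances counted, ARF35-only peaks as a class were not more crowded than shared ARF35 peaks. Another ARF35 summit lay within 1000 bp of 8.91% of ARF35-only and 14.8% of shared peaks. Within 10000 bp the shares were 29.0% (25.9 to 32.3) and 32.9% (31.9 to 33.9). The run on chromosome 4 (172407991 to 172446625) held 15 ARF35 peaks, 11 of them ARF35-only, and 4 ARF27 peaks. The run on chromosome 6 (104399867 to 104405763) held 6 ARF35-only peaks within 5897 bp, with signals from 78 to 516 reads and no peak of any other list. On chromosome 7, one run (129629541 to 129667267) held 9 ARF35-only peaks and another (150223054 to 150237813) held 4, and neither held an ARF27 peak. Outside the runs 24 of 49 strong ARF35-only peaks (49.0%, 35.6 to 62.5) were on no other list, which is close to the 44.4% of all ARF35-only peaks and the 45% (40.2 to 49.8) of those in the weakest quintile. The interval outside the runs includes both values. In the strongest quintile 8 of 12 peaks outside the runs were on no other list (66.7%, 39.1 to 86.2). Of the other 12 lists, 0 to 3 had a peak in a run.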

How the data were processed

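DAP-seq peak lists of 14 ARFs were used, 1 library each. The GST-HALO control was used only by the authors, as background for peak calling. Reads had been trimmed and mapped with Bowtie2 2.2.8 to B73 RefGen version 3 without organelles. The authors removed reads of low mapping quality, which lowers the coverage of repeats, and called peaks per library with GEM, which uses enriched k-mers to place summits. The deposited signal is read depth per peak, unscaled between libraries. Deposited q-values and p-values are given as −log10, with 5 as the smallest and 999 as the ceiling for q on the 2 lists compared. The deposited score column was not used. The study describes the removal of regions with peaks in all samples and the control, a mark in the names of the lists may stand for it, and no label states it. Whether the runs of strong ARF35-only peaks touch such regions was not tested. Total reads per library are unknown here, apart from the reductions of ARF27 and ARF34.

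Summit distances, ranks and Wilson and Newcombe intervals were computed in Python 3.11.15 with numpy 2.4.6, pandas 2.3.3 and scipy 1.17.1. Overlaps were checked with bedtools 2.31.1 in 30 comparisons (largest difference 0 peaks) and tested on simulated data. A chromosome spanned from 1 to the largest peak end on any list, and coordinates are 1-based. Named regions were the 5 of highest rank per class, the 3 strongest unshared peaks of each protein on no other list, and the 3 pairs of largest rank difference in each direction. Groups were the ARFs in the labels. Clades were taken from the study and served only to name sets of lists. The members, lists and rules were chosen with earlier results of these data known. Alternatives were other summit distances (200 and 20 bp), equal list lengths, a −log10 q of at least 10, other outer regions, fewer or shorter other lists, and mutual nearest summits. Sequence features and nearest genes were not analysed here.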

Additional observations from a re-analysis of the deposited data

How the results depend on the processing

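No paired analysis was possible because each ARF had 1 library. Of 47 recomputed values 17 stayed within the 95% interval of the reported value and 30 left it. A change of sign was seen in 0, but only the differences and rho could change sign, since a share of peaks cannot be negative. The shares of ARF35 and ARF27 peaks that were shared, 91.7% and 29.8%, became 92.4% and 30.9% with summits up to 200 bp apart, 76.9% and 23.1% with summits up to 20 bp apart, 93.8% and 27.8% at a −log10 q of at least 10, 90.5% and 27.1% with mutual nearest summits, and 62.9% and 63.7% with the ARF27 list cut to the length of the ARF35 list. The median rank of shared minus ARF27-only peaks, 41.0 points, became 39.6 at 20 bp and 32.5 with the cut list. Their difference in outer share, 4.76 points, became 3.06 at the stricter q, 2.95 for the outer 10% and 1.01 with the cut list. The share of ARF35-only peaks on no other list, 44.4%, became 34.7% at 20 bp, 13% with the cut ARF27 list (which makes 3416 peaks ARF35-only), 48.4% without ARF34 and 77.3% with every other list cut to 7520 peaks. It was 42.6% without the 4 runs, an alternative chosen after seeing the data. Spearman's rho at shared peaks, 0.654, became 0.675 at 20 bp and 0.567 with the cut list. The cut list has fewer ARF27 peaks to share, and the causes of the other changes were not tested. With 1 library per ARF, absence from a list means only that no peak passed the threshold there.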

Other observations

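Sites with ARF27 and ARF35 peaks but none of another ARF were few and weak. The 119 shared ARF35 peaks on none of the other 12 lists had a median rank of 28.5 in the ARF35 list, and the ARF27 peaks paired with them a median rank of 37.0. The 553 shared ARF35 peaks on all 12 other lists had median ranks of 85.6 for ARF35 and 95.7 for ARF27. Ranks of the pairs rose together within each of these sets (Spearman's rho across pairs 0.419 and 0.663), and no test was made.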
